A study of Homo sapiens with 8 samples.

Results

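The subject was 10 genes that p53 is known to switch on and that serve DNA repair, metabolism and stress signalling, followed here across bleomycin doses: DDB2, XPC, POLH, RRM2B, FDXR, TIGAR, SPATA18, PHLDA3, TP53INP1 and ZMAT3. They were chosen by symbol, and all 10 were found among the 46427 rows of the deposited tables. All 10 passed the filter on low counts that left 18303 genes for testing. The cells were human H7 embryonic stem cells, an established line, differentiated for 21 days by way of endoderm, foregut and lung progenitors, and cultured on inserts first submerged (3 days) and then at an air-liquid interface (7 days). The labels call the product differentiated type 2 alveolar cells of WT genotype. There were 4 groups of 2 libraries: untreated cells, and cells exposed apically for 24 hours to 24, 240 or 480 µg/ml of bleomycin. A stock of 10 µg/ml is named in the labels, although each dose exceeds it. The labels do not say whether the 2 libraries of a group came from separate cultures, so p-values measure the spread between libraries, which may be technical.

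Bleomycin is a drug that breaks DNA. Broken DNA activates kinases that stabilize p53, a transcription factor that binds a palindromic element and raises the transcription of genes for arrest, death, repair and metabolism. Among the 10 genes, DDB2 and XPC make proteins that recognise damaged bases for nucleotide excision repair. POLH makes a polymerase that copies past damaged bases, and RRM2B makes a subunit of the enzyme that supplies deoxynucleotides outside S phase. FDXR, TIGAR and SPATA18 act in mitochondrial redox chemistry, sugar metabolism and mitochondrial quality control. PHLDA3 restrains AKT, TP53INP1 promotes p53 signalling and autophagy, and ZMAT3 binds RNA.

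The p53 consensus element is 10 bases long and is its own reverse complement, so that both strands are searched at once; a full site holds 2 such elements with 0 to 13 bases between them. Promoter windows in RefSeq (GRCh38.p14, 250 bases before to 50 after a start) were found for 7 of the 10 genes, in 10 windows. An exact element occurred in 1 window of DDB2 and 1 of FDXR, and in 6.632% of all 35116 windows. The DDB2 window held a full site of 2 exact elements with 1 base between them, which 10 of the 35116 windows held (0.028%). These windows are shown because they hold an exact element, and capitals mark the exact elements. They belong to the gene with the highest length-scaled level and the gene with the highest fold change, but were not chosen for that. The DDB2 window is chr11:47214724-47215023 on the plus strand, and its site lies just after the annotated start of that transcript. The FDXR window is chr17:74872945-74873244 on the minus strand, with its single element just before the start.
DDB2: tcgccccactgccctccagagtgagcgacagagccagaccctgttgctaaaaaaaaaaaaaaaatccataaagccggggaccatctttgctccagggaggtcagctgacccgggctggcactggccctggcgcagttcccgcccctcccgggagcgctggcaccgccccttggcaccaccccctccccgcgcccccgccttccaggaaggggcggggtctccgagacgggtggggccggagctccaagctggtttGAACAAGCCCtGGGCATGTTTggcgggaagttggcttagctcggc
FDXR: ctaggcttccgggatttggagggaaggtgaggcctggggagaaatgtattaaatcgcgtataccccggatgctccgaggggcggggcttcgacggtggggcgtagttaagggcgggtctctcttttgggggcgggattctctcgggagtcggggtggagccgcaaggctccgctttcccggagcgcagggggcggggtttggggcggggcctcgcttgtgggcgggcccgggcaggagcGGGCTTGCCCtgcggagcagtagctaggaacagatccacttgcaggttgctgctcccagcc
A match is a match of letters only. With 1 mismatch allowed outside the fixed C and G of the element, 6 of the 10 windows and 45.119% of all windows had one. Those 6 windows belonged to 4 of the 7 genes (DDB2, FDXR, SPATA18 and ZMAT3). No exact element was in the windows of XPC, POLH, TIGAR, SPATA18 or ZMAT3.

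Total counts ran from 53431773 to 67715984 per library, and the lowest count of any of the 10 genes was 429, so counting error was small. Levels below are CPM, in which a library's counts are scaled by its total and its TMM factor. TPM, which is scaled for gene length, is used to compare genes with each other. Gene positions are those of GENCODE 29 on GRCh38. A change is a log2 fold change ± SE from edgeR's quasi-likelihood test over all 8 libraries. A gene is said to rise or fall where its p, adjusted over all 18303 genes, was under 0.05. Of 11 markers of type 2 cells, 8 passed the filter, but the surfactant gene SFTPC had 0 counts in 6 libraries and at most 7 in any, so the label was not borne out by that defining marker. The summed level of the 11 markers was 94.99 to 104 CPM at 480 µg/ml and 163 to 165 CPM in untreated cells. Of the 8 tested, 1 rose and 4 fell at 480 µg/ml. The riser was ABCA3, the surfactant lipid transporter (1.15 ± 0.16, adjusted p = 0.00154 by edgeR). LPCAT1, a lipid enzyme that is not particular to these cells and held most of the sum, fell (-0.97 ± 0.11, adjusted p = 0.000624), and LAMP3, of lamellar bodies, did not pass the test (0.70 ± 0.26, adjusted p = 0.08). Type 1 markers (6 of 7 passed) summed to 119 to 132 CPM at 480 µg/ml and 376 to 382 CPM in untreated cells, and 0 rose and 2 fell. GPRC5A held most of both sums, with means of 93.9 CPM at 480 µg/ml and 337 CPM in untreated cells. AGER had means of 1.10 and 1.07 CPM and CAV1 of 6.37 and 6.65 CPM. The median log2 fold change of the 6 tested was -0.40 at 480 µg/ml. Mesenchymal markers (7 of 7 passed) summed to 430 to 489 CPM at 480 µg/ml and 463 to 501 CPM in untreated cells, and 0 rose and 5 fell. Their median log2 fold change was -0.96 at 480 µg/ml, with 1 of 7 above 0, which the overlapping sums do not show. Hepatic markers (9 of 9 passed) summed to 53931 to 55514 CPM without bleomycin, 40447 to 59055 CPM at 24 µg/ml, 78420 to 85298 CPM at 240 µg/ml and 66134 to 70510 CPM at 480 µg/ml, where 3 rose and 0 fell. In bulk RNA, more cells that express a gene and more RNA per cell cannot be told apart, and the part of these shifts in the results below was not tested.

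**Figure D1:**
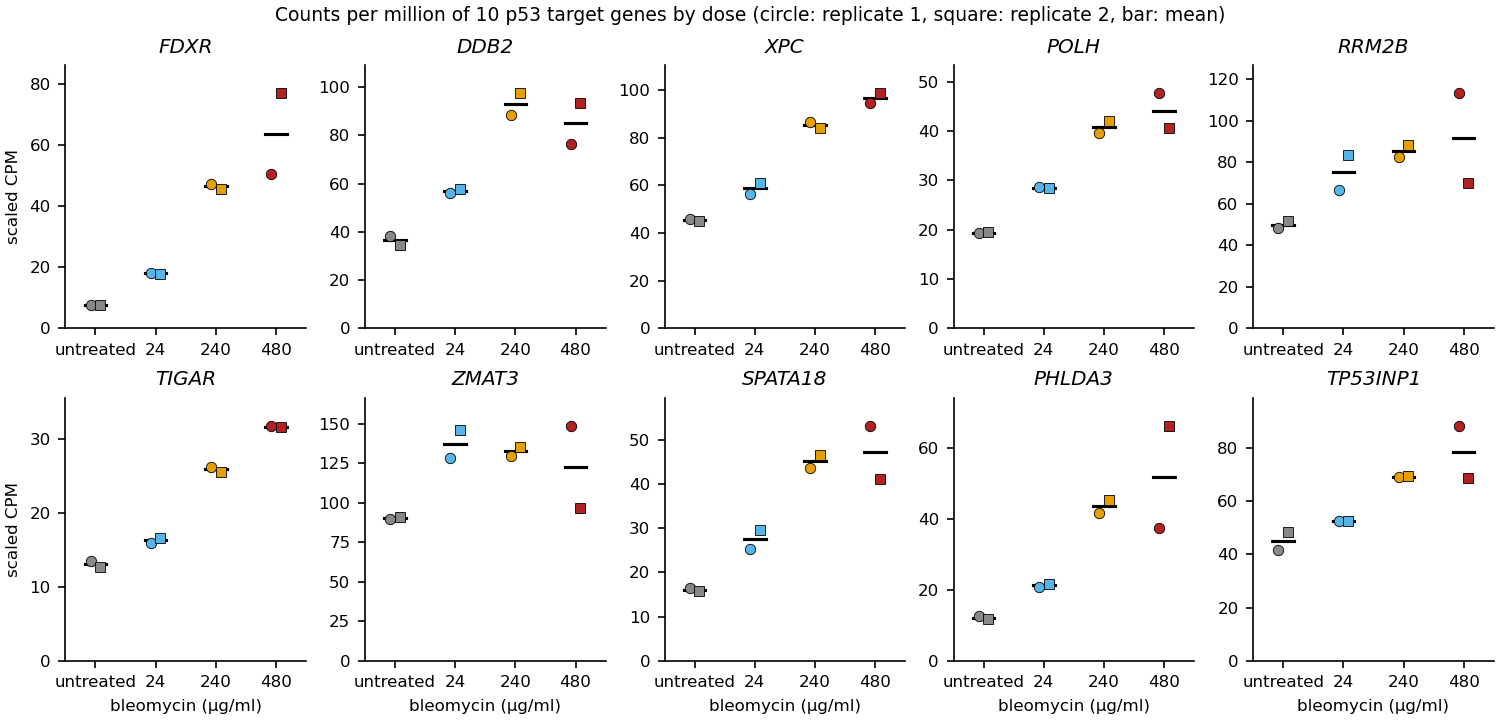
Scaled CPM (y axis, from 0) of each gene by bleomycin dose in µg/ml, starting with untreated cells (x axis). Circles are replicate 1, squares replicate 2 and bars means of n = 2. All treated libraries lie above both untreated libraries in every panel, and the 2 libraries of 480 µg/ml lie apart in most.

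All 10 genes lay higher than in untreated cells at every dose. At 480 µg/ml 9 of 10 rose, where 13.9% of all tested genes were called higher. At 240 µg/ml 8 of 10 rose, where 5.16% were called higher. At 24 µg/ml 0 of 10 were called, as for all genes (0%), although 9 of the 10 had an unadjusted p under 0.05, where 3.31% of all genes did. None of the 10 fell at any dose. At 240 µg/ml 5 of the 10 were called without control replicate 1 and 3 without control replicate 2, where 0.351% and 0.357% of all genes were called higher. The median log2 fold change was 0.59, 1.03 and 1.20 at 24, 240 and 480 µg/ml, and 0.01 over all genes at each dose. By CPM, both treated libraries lay above both untreated ones for all 10 genes at each dose. This held for 18.6%, 33.8% and 31.8% of all genes at 24, 240 and 480 µg/ml. By TPM, ZMAT3 in 480 µg/ml replicate 2 lay below both untreated libraries. The 3 comparisons share their untreated libraries, so the 3 counts are not independent.

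DDB2 (chr11:47214465-47239240, plus strand), the damage sensor that finds ultraviolet lesions in chromatin together with DDB1, had 38.2 and 34.7 CPM without bleomycin, 56.1 and 57.8 CPM at 24 µg/ml, 88.6 and 97.4 CPM at 240 µg/ml, and 76.4 and 93.6 CPM at 480 µg/ml. Its groups did not overlap up to 240 µg/ml, and the 2 highest doses overlapped. It rose 2.55-fold at 240 µg/ml (1.35 ± 0.14, adjusted p = 0.00173) and 2.33-fold at 480 µg/ml (1.22 ± 0.14, adjusted p = 0.000595). It was the most abundant of the 10 by length in every group, with 104 ± 1.20 TPM at 480 µg/ml and 46.3 ± 1.11 TPM in untreated cells (SD, n = 2 each). DDB1, its partner, did not pass the test at 480 µg/ml (0.12 ± 0.11, adjusted p = 0.462), and the ratio of DDB2 to DDB1 by TPM was 0.597 and 0.638 at 480 µg/ml, against 0.297 and 0.278 in untreated cells.

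XPC (chr3:14145147-14178783, minus strand), which recognises helix distortion ahead of excision repair, had 45.9 and 45.01 CPM without bleomycin, 56.5 and 60.8 CPM at 24 µg/ml, 86.7 and 84.1 CPM at 240 µg/ml, and 94.5 and 98.6 CPM at 480 µg/ml. No pair of neighbouring doses overlapped, and the libraries of a group lay close together. It rose 1.88-fold at 240 µg/ml (0.91 ± 0.11, adjusted p = 0.00351) and 2.12-fold at 480 µg/ml (1.09 ± 0.11, adjusted p = 0.000405). RAD23B, which binds and stabilizes XPC, had a log2 fold change of -0.18 ± 0.12 at 480 µg/ml (adjusted p = 0.308), and CETN2, the other partner, had 0.29 ± 0.12 (adjusted p = 0.0982). Without 480 µg/ml replicate 1, RAD23B was called lower (-0.31, adjusted p = 0.0225) and CETN2 higher (0.35, adjusted p = 0.0261). The call of XPC at 240 µg/ml was lost by edgeR without control replicate 1 (adjusted p = 0.0548), control replicate 2 (0.0609) or 240 µg/ml replicate 2 (0.0506). XPC overlaps LSM3 and 2 other genes on the other strand in GENCODE 29, and the strand counted is not given in the sources used here.

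POLH (chr6:43576150-43615660, plus strand), the polymerase that copies across ultraviolet dimers, had 19.3 and 19.4 CPM without bleomycin, 28.6 and 28.4 CPM at 24 µg/ml, 39.7 and 42.0 CPM at 240 µg/ml, and 47.6 and 40.6 CPM at 480 µg/ml. Each group up to 240 µg/ml stood clear of the one below it, and the 2 highest doses overlapped. It rose 2.10-fold at 240 µg/ml (1.07 ± 0.12, adjusted p = 0.00284) and 2.27-fold at 480 µg/ml (1.19 ± 0.12, adjusted p = 0.000444). POLI and POLK, other polymerases of the same family, had log2 fold changes of 0.20 ± 0.18 (adjusted p = 0.428) and 0.33 ± 0.25 (adjusted p = 0.366) at 480 µg/ml, which without 480 µg/ml replicate 1 were -0.11 and -0.24, and without 480 µg/ml replicate 2 were 0.45 and 0.73 and both called. The call of POLH at 240 µg/ml was lost by edgeR without control replicate 1 (adjusted p = 0.0517) or control replicate 2 (adjusted p = 0.0504). POLH overlaps POLH-AS1 and GTPBP2 on the other strand.

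RRM2B (chr8:102204502-102239118, minus strand), the p53-inducible small subunit of ribonucleotide reductase, had 48.1 and 51.9 CPM without bleomycin, 66.7 and 83.6 CPM at 24 µg/ml, 82.5 and 88.2 CPM at 240 µg/ml, and 113 and 69.9 CPM at 480 µg/ml. All treated libraries stood above the untreated ones, and the 3 doses overlapped each other. It rose 1.83-fold at 480 µg/ml (0.87 ± 0.21, adjusted p = 0.0165). Its fold change was 1.18 without 480 µg/ml replicate 2 and 0.47 without 480 µg/ml replicate 1, both on the log2 scale and both called. The call was lost without control replicate 1 (adjusted p = 0.112), without control replicate 2 (adjusted p = 0.0826), in an edgeR fit of the 2 groups alone (adjusted p = 0.0552) and by limma on TPM (adjusted p = 0.0878). At 240 µg/ml it just missed the threshold (0.77 ± 0.21, adjusted p = 0.0526), and it was called there without either 480 µg/ml library (adjusted p = 0.00159 and 0.00154). It was also called at 240 µg/ml by DESeq2 (adjusted p = 0.00331), and by edgeR with no filter on low counts (0.00105), with a filter at 50 counts (0.0441) and in a fit of the 2 groups alone (0.000178).

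The other subunits of that enzyme fell. RRM2, the small subunit of dividing cells, had 34.97 and 44.8 TPM in untreated cells, 34.7 and 38.2 TPM at 24 µg/ml, 18.9 and 16.9 TPM at 240 µg/ml, and 15.1 and 10.9 TPM at 480 µg/ml. It fell at 240 µg/ml (-1.04 ± 0.14, adjusted p = 0.00475) and at 480 µg/ml (-1.55 ± 0.14, adjusted p = 0.00029). RRM1, the large subunit that pairs with either small one, fell at 480 µg/ml (-0.61 ± 0.13, adjusted p = 0.00978). By edgeR, the call of RRM1 was lost without control replicate 1 (adjusted p = 0.0564) or 2 (0.0846), and that of RRM2 at 240 µg/ml without control replicate 2 (0.0621) or 240 µg/ml replicate 2 (0.0763). The ratio of RRM2B to RRM2 by TPM was 0.641 and 0.576 in untreated cells, 0.915 and 1.08 at 24 µg/ml, 1.95 and 2.34 at 240 µg/ml, then 3.81 and 2.70 at 480 µg/ml. RRM2 therefore had the higher value in untreated libraries and RRM2B in all libraries of 240 and 480 µg/ml, and no neighbouring groups overlapped in this ratio.

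**Figure D2:**
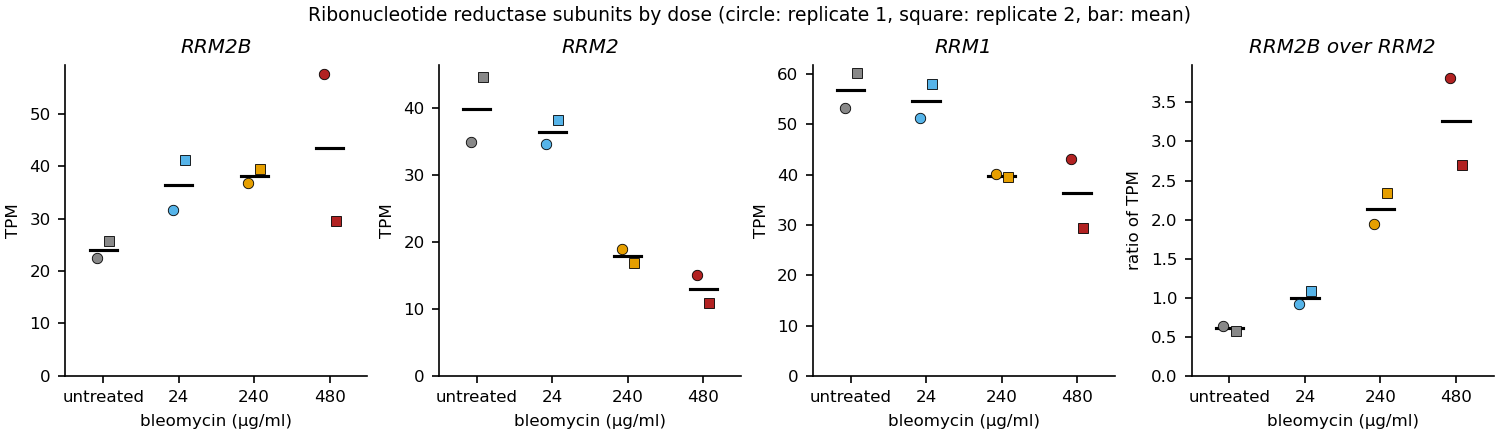
TPM of RRM2B, RRM2 and RRM1 (first 3 panels, y axis from 0) and the ratio of RRM2B to RRM2 within each library (last panel) by bleomycin dose (x axis). Circles are replicate 1, squares replicate 2 and bars means of n = 2; the ratio lies between 0.576 and 0.641 in untreated cells and between 2.70 and 3.81 at 480 µg/ml.

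FDXR (chr17:74862497-74873031, minus strand), the mitochondrial reductase that passes electrons from NADPH to ferredoxins for steroid and iron-sulfur cluster synthesis, had the highest fold change of the 10 at every dose. It had 7.71 and 7.60 CPM without bleomycin, 18.2 and 17.6 CPM at 24 µg/ml, 47.3 and 45.5 CPM at 240 µg/ml, and 50.5 and 76.8 CPM at 480 µg/ml. No group overlapped another. It rose 6.06-fold at 240 µg/ml (2.60 ± 0.19, adjusted p = 0.00072) and 8.32-fold at 480 µg/ml (3.06 ± 0.20, adjusted p = 0.000105). Among the 10 genes its mean TPM ranked 7 in untreated cells and 2 at 480 µg/ml. FDX1, the ferredoxin it feeds, did not pass the test at 480 µg/ml (-0.09 ± 0.11, adjusted p = 0.57), and FDX2, the ferredoxin of iron-sulfur synthesis, rose with an adjusted p just under the threshold (0.68 ± 0.22, adjusted p = 0.0498). That call of FDX2 was lost by edgeR without any 1 library other than 480 µg/ml replicate 1. It was also lost by DESeq2 (adjusted p = 0.073) and by limma on TPM (0.0575). By edgeR it was lost in a fit of the 2 groups alone (adjusted p = 0.0942) and with the replicate number as a block (0.0559). With the trend on gene length, described further on, removed it was lost too (adjusted p = 0.0628 by edgeR). The ratio of FDXR to FDX1 by TPM was 2.36 and 3.57 at 480 µg/ml, against 0.326 and 0.338 in untreated cells.

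TIGAR (chr12:4307763-4354593, plus strand), a phosphatase that lowers fructose-2,6-bisphosphate and so favours the pentose phosphate pathway, had 13.4 and 12.7 CPM without bleomycin, 15.9 and 16.6 CPM at 24 µg/ml, 26.2 and 25.5 CPM at 240 µg/ml, and 31.7 and 31.5 CPM at 480 µg/ml. No group overlapped another. By the ratio of their CPM, though not of their TPM, the libraries of 480 µg/ml lay closer together than for any other of the 10 genes. It rose 1.98-fold at 240 µg/ml (0.99 ± 0.12, adjusted p = 0.00284) and 2.42-fold at 480 µg/ml (1.28 ± 0.12, adjusted p = 0.000271). It was the least abundant of the 10 by length in every group, with 8.55 ± 1.15 TPM at 480 µg/ml and 3.65 ± 0.0289 TPM in untreated cells (SD, n = 2 each). PFKFB3, whose enzyme makes the metabolite that TIGAR breaks down, also rose at 480 µg/ml (0.95 ± 0.19, adjusted p = 0.00742), and the ratio of TIGAR to PFKFB3 by TPM was 0.105 and 0.138 at 480 µg/ml, against 0.115 and 0.0799 in untreated cells, which overlap. By edgeR, the call of PFKFB3 was lost without control replicate 1 (adjusted p = 0.0765), and that of TIGAR at 240 µg/ml without control replicate 2 (adjusted p = 0.0524).

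SPATA18 (chr4:52051331-52097292, plus strand), also called MIEAP, which acts in the disposal of damaged mitochondrial content, had 16.5 and 15.7 CPM without bleomycin, 25.3 and 29.6 CPM at 24 µg/ml, 43.6 and 46.6 CPM at 240 µg/ml, and 53.1 and 41.1 CPM at 480 µg/ml. It stood clear of the lower dose up to 240 µg/ml, and the 2 highest doses overlapped. It rose 2.81-fold at 240 µg/ml (1.49 ± 0.16, adjusted p = 0.00181) and 2.93-fold at 480 µg/ml (1.55 ± 0.16, adjusted p = 0.000368).

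PHLDA3 (chr1:201464383-201469237, minus strand), a small pleckstrin homology protein that competes with AKT for membrane lipids, had 12.7 and 11.6 CPM without bleomycin, 20.9 and 21.8 CPM at 24 µg/ml, 41.6 and 45.4 CPM at 240 µg/ml, and 37.5 and 66.1 CPM at 480 µg/ml. Both libraries of 240 µg/ml lay between those of 480 µg/ml. It rose 3.57-fold at 240 µg/ml (1.84 ± 0.23, adjusted p = 0.00395) and 4.26-fold at 480 µg/ml (2.09 ± 0.24, adjusted p = 0.000595). Its relatives PHLDA1 (-0.28 ± 0.17, adjusted p = 0.269) and PHLDA2 (0.03 ± 0.37, adjusted p = 0.958) did not pass the test at 480 µg/ml, and PHLDA2 was at -0.38 without control replicate 2, -0.36 without 480 µg/ml replicate 2 and -0.13 with the trend on gene length, described further on, removed. The call of PHLDA3 at 240 µg/ml was lost without control replicate 2 (adjusted p = 0.051 by edgeR).

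TP53INP1 (chr8:94925972-94949411, minus strand), a stress protein that takes part in autophagy and in the activation of p53, had 41.5 and 48.3 CPM without bleomycin, 52.4 and 52.5 CPM at 24 µg/ml, 69.1 and 69.4 CPM at 240 µg/ml, and 88.3 and 68.7 CPM at 480 µg/ml. The groups up to 240 µg/ml did not overlap, and 480 µg/ml replicate 2 lay just below the libraries of 240 µg/ml. It rose 1.54-fold at 240 µg/ml (0.62 ± 0.15, adjusted p = 0.0318) and 1.75-fold at 480 µg/ml (0.80 ± 0.15, adjusted p = 0.00456). TP53INP2, its paralog in autophagy, rose at 480 µg/ml (0.79 ± 0.16, adjusted p = 0.00829). By edgeR, both calls at 480 µg/ml were lost without control replicate 1 (adjusted p = 0.063 for TP53INP1 and 0.0899 for TP53INP2). The call of TP53INP1 at 240 µg/ml was lost without any 1 library of untreated cells, 24 or 240 µg/ml (adjusted p = 0.0684 to 0.242), with the replicate number as a block (0.0571) and by limma on TPM (0.171). TP53INP1 lies across from NDUFAF6 on the other strand, and reads of the pair cannot be told apart if strand was not counted.

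ZMAT3 (chr3:179017223-179072279, minus strand), a zinc finger protein that binds RNA and alters splicing and RNA stability, had the highest mean scaled count of the 10 in every group but was not called at any dose by edgeR on all 8 libraries. It had 89.8 and 91.3 CPM without bleomycin, 128 and 146 CPM at 24 µg/ml, 129.5 and 136 CPM at 240 µg/ml, and 149 and 96.7 CPM at 480 µg/ml. By CPM all treated libraries stood above the untreated ones, and the 3 doses overlapped. The treated library nearest to untreated cells was 480 µg/ml replicate 2. By TPM that library had 21.5, below the 21.8 and 23.7 of the untreated libraries. The log2 fold change was 0.60 ± 0.19 (adjusted p = 1) at 24 µg/ml, 0.55 ± 0.19 (adjusted p = 0.0965) at 240 µg/ml and 0.44 ± 0.19 (adjusted p = 0.112) at 480 µg/ml. At 240 µg/ml it was called by DESeq2 (adjusted p = 0.0306), and by edgeR with no filter on low counts (0.0194), in a fit of the 2 groups alone (0.000792) and without 480 µg/ml replicate 1 (0.00217) or 2 (0.00212). With no filter on low counts it was also called at 480 µg/ml (adjusted p = 0.0448 by edgeR). Without 480 µg/ml replicate 2 the value at 480 µg/ml was 0.71 and was called (adjusted p = 0.000994), and without 480 µg/ml replicate 1 it was 0.08 (adjusted p = 0.545).

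**Figure D3:**
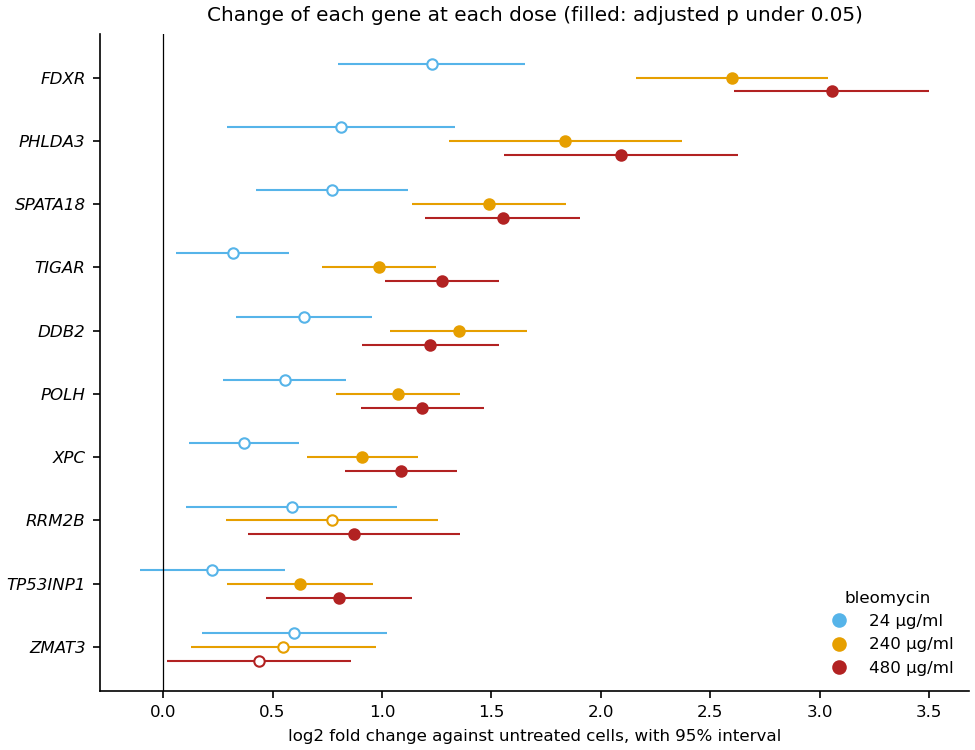
Log2 fold change against untreated cells (x axis) with its 95% interval for each gene (rows, in order of the change at 480 µg/ml) at 24, 240 and 480 µg/ml. Filled points have adjusted p under 0.05 by edgeR; FDXR reaches 3.06 at 480 µg/ml, ZMAT3 is at 0.44 there, and points of 24 µg/ml are all open.

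At 24 µg/ml the size of the change was largest for FDXR (1.23 ± 0.19, adjusted p = 0.256), followed by PHLDA3 (0.81 ± 0.23, adjusted p = 1) and SPATA18 (0.77 ± 0.15, adjusted p = 0.47). It was smallest for TP53INP1 (0.22 ± 0.15, adjusted p = 1), whose 95% interval ran from -0.11 to 0.56. The intervals of the other 9 genes lay above 0 before adjustment. In a fit of the 3 other groups, chosen after the data were seen because the 480 µg/ml libraries lay apart, 6 of the 10 were called higher: FDXR (adjusted p = 0.00327), PHLDA3 (adjusted p = 0.0273), SPATA18 (adjusted p = 0.0346), DDB2 (adjusted p = 0.036), POLH and ZMAT3 (adjusted p = 0.0444 each). In that fit 0.123% of all genes were called higher. DESeq2 on all 8 libraries called FDXR, DDB2 and SPATA18 (adjusted p = 3.87e-06, 0.0216 and 0.011), where it called 0.178% of all genes higher.

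The comparison of 240 with 24 µg/ml asks which of the genes respond further to a higher dose. At 240 µg/ml 7 of 10 rose against 24 µg/ml, where 3.34% of all tested genes were called higher. FDXR rose most (1.37 ± 0.18, adjusted p = 0.00967), then PHLDA3 (1.03 ± 0.23, adjusted p = 0.0342), SPATA18 (0.71 ± 0.15, adjusted p = 0.031), DDB2 (0.71 ± 0.14, adjusted p = 0.0239) and TIGAR (0.67 ± 0.11, adjusted p = 0.0166). XPC (0.54 ± 0.11, adjusted p = 0.0278) and POLH (0.52 ± 0.12, adjusted p = 0.0419) rose too. RRM2B (0.18 ± 0.21, adjusted p = 0.636), ZMAT3 (-0.05 ± 0.19, adjusted p = 0.895) and TP53INP1 (0.40 ± 0.15, adjusted p = 0.132) did not pass the test. Their 95% intervals ran from -0.30 to 0.66 for RRM2B, from -0.47 to 0.37 for ZMAT3 and from 0.07 to 0.73 for TP53INP1, so a rise as large as that of XPC lay inside the interval for RRM2B and TP53INP1 and outside it for ZMAT3. Without 24 µg/ml replicate 1 or 2, 0 of 10 were called, where 0.283% and 0.0262% of all genes were called higher. Without 240 µg/ml replicate 1 or 2, 0 of 10 were called as well, where 0.119% and 0% of all genes were. Without control replicate 1 or 2 the count was 2 or 1, where the shares were 0.987% and 0.973%, and with the replicate number as a block it was 4, where the share was 1.52%.

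At 480 against 240 µg/ml 0 of 10 were called by edgeR, where 0.257% of all tested genes were called in either direction. At an unadjusted p under 0.05, 2 of the 10 were higher, FDXR (0.46 ± 0.18, adjusted p = 0.389) and TIGAR (0.29 ± 0.11, adjusted p = 0.382), where 11.2% of all genes had such a p. DESeq2 also called 0, where it called 2.23% of all genes. DDB2 (-0.13 ± 0.14) and ZMAT3 (-0.11 ± 0.19) had values below 0. The widest 95% interval, that of PHLDA3, ran from -0.26 to 0.76. Without 480 µg/ml replicate 1, FDXR (0.72, adjusted p = 0.00804) and PHLDA3 (0.60, adjusted p = 0.0167) were called higher and ZMAT3 lower (-0.46, adjusted p = 0.033) by edgeR, where 7.46% of all genes were called. At 480 against 24 µg/ml, 8 of 10 rose, where 12.7% of all genes were called higher. RRM2B (0.28 ± 0.21, adjusted p = 0.35) and ZMAT3 (-0.16 ± 0.19, adjusted p = 0.552) did not pass that test. Both depended on the 480 µg/ml library kept. Without replicate 1, RRM2B was at -0.11 and ZMAT3 at -0.51, and without replicate 2 they were at 0.59 and 0.11. The count was 4 without 24 µg/ml replicate 1, 5 without 24 µg/ml replicate 2 and 5 in a fit of the 2 groups alone, where 4.88%, 4.2% and 6% of all genes were called higher.

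The 2 libraries of 480 µg/ml differed in a way that followed gene length. Of the 10 genes, the 4 with lengths of 1922 to 3960 bases, implied by the deposited counts and FPKM, were higher in replicate 2, and the 6 with lengths of 4514 to 9730 bases were lower in it. The log2 ratio of replicate 2 to replicate 1 was 0.82 for PHLDA3, 0.60 for FDXR, 0.29 for DDB2 and 0.06 for XPC. It was -0.01 for TIGAR, -0.23 for POLH, -0.36 for TP53INP1, -0.37 for SPATA18, -0.62 for ZMAT3 and -0.70 for RRM2B. Over all 18303 tested genes in 5 bins of equal size by length, the median of this ratio was 0.37 in the bin of shortest genes and -0.32 in that of the longest. In untreated cells the medians followed length the other way and less steeply, from -0.10 for the shortest genes to 0.10 for the longest. At 24 and 240 µg/ml they lay between -0.02 and 0.04. Mitochondrially encoded genes took 3.01% of counts in replicate 2 and 1.69% in replicate 1.

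**Figure D4:**
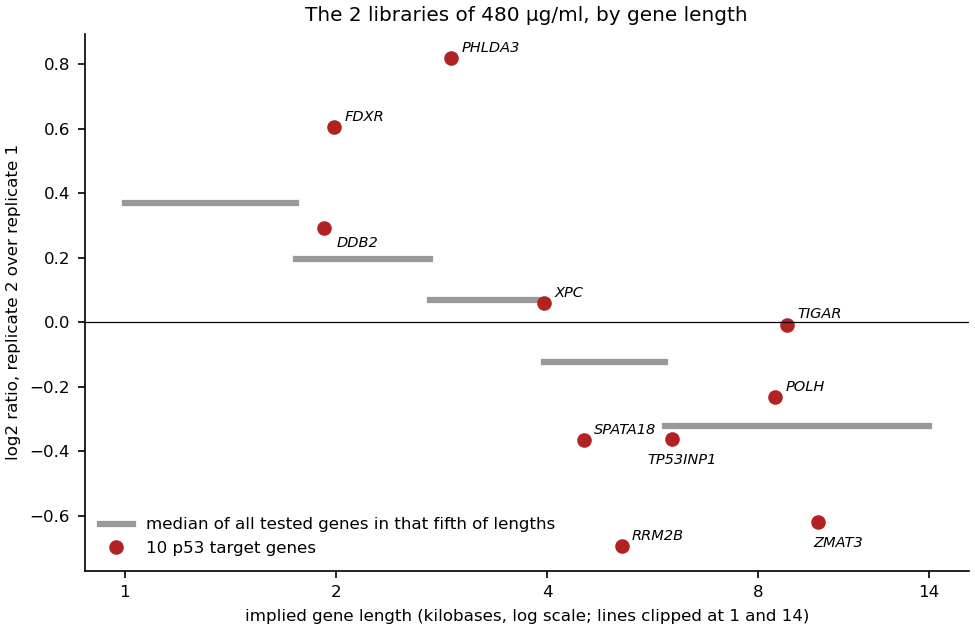
Log2 ratio of scaled CPM between replicates 2 and 1 of 480 µg/ml (y axis) against the gene length implied by the deposited tables in kilobases (x axis, log scale). Red points are the 10 genes and grey lines the medians of all tested genes in 5 bins of length, which are 0.37 for the shortest genes and -0.32 for the longest.

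With the trend on length removed from each library, a step added once the data had been looked at, 10 of 10 rose at 240 and at 480 µg/ml, where 7.08% and 16.3% of all tested genes were called higher. ZMAT3 then rose at 240 µg/ml (0.69 ± 0.12, adjusted p = 0.006) and at 480 µg/ml (0.58 ± 0.12, adjusted p = 0.00506), and RRM2B rose at 240 µg/ml (0.82 ± 0.17, adjusted p = 0.0142). FDXR stayed the highest of the 10 (2.94 ± 0.14 at 480 µg/ml). A real change that followed gene length would be removed by this step too.

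The counts of the lists that follow are to be read against all tested genes, of which 13.9% were called higher and 13.9% lower at 480 µg/ml, and 5.16% higher and 5.17% lower at 240 µg/ml. Of 24 other genes of nucleotide excision repair, 1 rose and 1 fell at 480 µg/ml, with a median log2 fold change of 0.14. The riser was GTF2H5, a small subunit of the repair helicase complex (0.76 ± 0.12, adjusted p = 0.00274), and the other was CUL4A, the scaffold of the ligase that holds DDB1 and DDB2 (-0.63 ± 0.13, adjusted p = 0.00714). CUL4A was not called without control replicate 2 (adjusted p = 0.0726 by edgeR). CCNH, of the same helicase complex's kinase (0.34 ± 0.12, adjusted p = 0.0699), and ERCC2, its helicase (0.56 ± 0.20, adjusted p = 0.07), did not pass the test. Of 13 other genes of translesion synthesis, 0 rose and 2 fell, POLQ, an end-joining polymerase (-1.51 ± 0.27, adjusted p = 0.00442), and RAD18, the ligase that marks PCNA (-0.87 ± 0.18, adjusted p = 0.00731), which was not called without control replicate 1 (adjusted p = 0.0591). REV1 (-0.61 ± 0.20, adjusted p = 0.0526), MAD2L2 (-0.54 ± 0.20, adjusted p = 0.0765) and UBE2A (0.20 ± 0.11, adjusted p = 0.201), other parts of this machinery, did not pass the test. At 240 µg/ml 0 genes of either list were called.

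Of 14 other genes of nucleotide supply, 1 rose and 4 fell at 480 µg/ml, with a median of -0.35. Beside RRM2 and RRM1, the thymidine kinase TK1 fell (-1.24 ± 0.19, adjusted p = 0.00197). TYMS, which makes thymidylate and overlaps ENOSF1 on the other strand, rose (0.60 ± 0.11, adjusted p = 0.00394), and was not called without control replicate 1 (adjusted p = 0.0552) or 2 (adjusted p = 0.0518).

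Of 18 genes of the ferredoxin and iron-sulfur assembly list, 16 were tested, and 6 rose and 2 fell at 480 µg/ml, the risers a larger share and the fallers about the same share as among all genes. The scaffold protein gene ISCU (1.32 ± 0.13, adjusted p = 0.000388), the sulfur donor NFS1 (0.84 ± 0.14, adjusted p = 0.00315) and the late carrier NFU1 (0.70 ± 0.13, adjusted p = 0.00439) rose. HSPA9, the mitochondrial chaperone that releases the cluster from its scaffold, fell (-0.83 ± 0.11, adjusted p = 0.00134). Of 27 genes of glycolysis and the pentose phosphate pathway, 3 rose and 2 fell, with a median of 0.06, shares in each direction no larger than those of all genes. PFKFB4, which sets fructose-2,6-bisphosphate (1.11 ± 0.16, adjusted p = 0.00156), and HK1, a hexokinase (0.71 ± 0.13, adjusted p = 0.00457), rose beside PFKFB3. RPIA, an isomerase of the pentose phosphate pathway, fell (-1.12 ± 0.18, adjusted p = 0.00227). NFU1 was not called without control replicate 2 (adjusted p = 0.062), nor HK1 without control replicate 1 (adjusted p = 0.0531), by edgeR.

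Of 19 genes of autophagy and mitophagy, 11 rose and 0 fell at 480 µg/ml, with a median of 0.38, and 2 rose at 240 µg/ml. The share that rose was above that of all genes by more at 480 than at 240 µg/ml. ATG7, the activating enzyme of autophagosome growth, rose (1.10 ± 0.14, adjusted p = 0.00105), as did PINK1, the kinase that marks damaged mitochondria (0.97 ± 0.19, adjusted p = 0.00585), GABARAPL2, which coats autophagosomes (0.74 ± 0.13, adjusted p = 0.00407), and BNIP3, a mitophagy receptor (0.69 ± 0.12, adjusted p = 0.00357). By edgeR, BNIP3 was not called without control replicate 1 (adjusted p = 0.0539), nor GABARAPL2 and PINK1 without control replicate 2 (0.0612 and 0.0605). SQSTM1, an autophagy receptor, had -0.40 ± 0.15 (adjusted p = 0.0745). Of 18 genes of the AKT pathway, 2 rose and 0 fell, neither share above that of all genes, and MTOR, the growth kinase, was among those that rose (0.85 ± 0.11, adjusted p = 0.00114). FOXO1 (-0.44 ± 0.16, adjusted p = 0.0663) and PHLPP1 (-0.34 ± 0.13, adjusted p = 0.0758) did not pass the test. Of 6 genes listed beside ZMAT3 for RNA binding or splicing, ZMAT2 (0.55 ± 0.13, adjusted p = 0.0121) and ZMAT5 (0.74 ± 0.21, adjusted p = 0.0298) rose. AGO2, which carries microRNAs (-1.11 ± 0.18, adjusted p = 0.00268), and ELAVL1, which stabilizes RNA (-0.58 ± 0.11, adjusted p = 0.00479), fell. Without control replicate 1, ZMAT2 (adjusted p = 0.113), ZMAT5 (0.1) and ELAVL1 (0.0554) were not called by edgeR, and without control replicate 2 ZMAT2 (0.0837) and ZMAT5 (0.169) were not. ZMAT5 was also not called without 240 µg/ml replicate 1 (adjusted p = 0.0547), 240 µg/ml replicate 2 (0.0535) or 480 µg/ml replicate 2 (0.0952).

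Of 24 other p53 targets, 20 rose and 0 fell at 480 µg/ml, with a median of 0.97, and 20 rose at 240 µg/ml. The cell cycle inhibitor CDKN1A (2.46 ± 0.19, adjusted p = 0.000137), the death receptor FAS (2.15 ± 0.17, adjusted p = 0.000158) and the p53 ligase MDM2 (1.84 ± 0.13, adjusted p = 0.000107) had lower fold changes than FDXR (3.06 ± 0.20). TRIM22, an antiviral ligase, rose too (1.56 ± 0.14, adjusted p = 0.000229), and CCNG1, a cyclin, did not pass the test (-0.19 ± 0.13, adjusted p = 0.28). These were known from earlier results of the same libraries and are no independent evidence. The phosphatase PPM1D, which turns p53 off, rose at 480 µg/ml (0.88 ± 0.12, adjusted p = 0.00122). CHEK1, a checkpoint kinase on a list of p53 regulators with PPM1D, fell at 480 µg/ml (-1.20 ± 0.16, adjusted p = 0.00119), and of 16 tested genes of that list 2 rose and 5 fell.

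**Figure D5:**
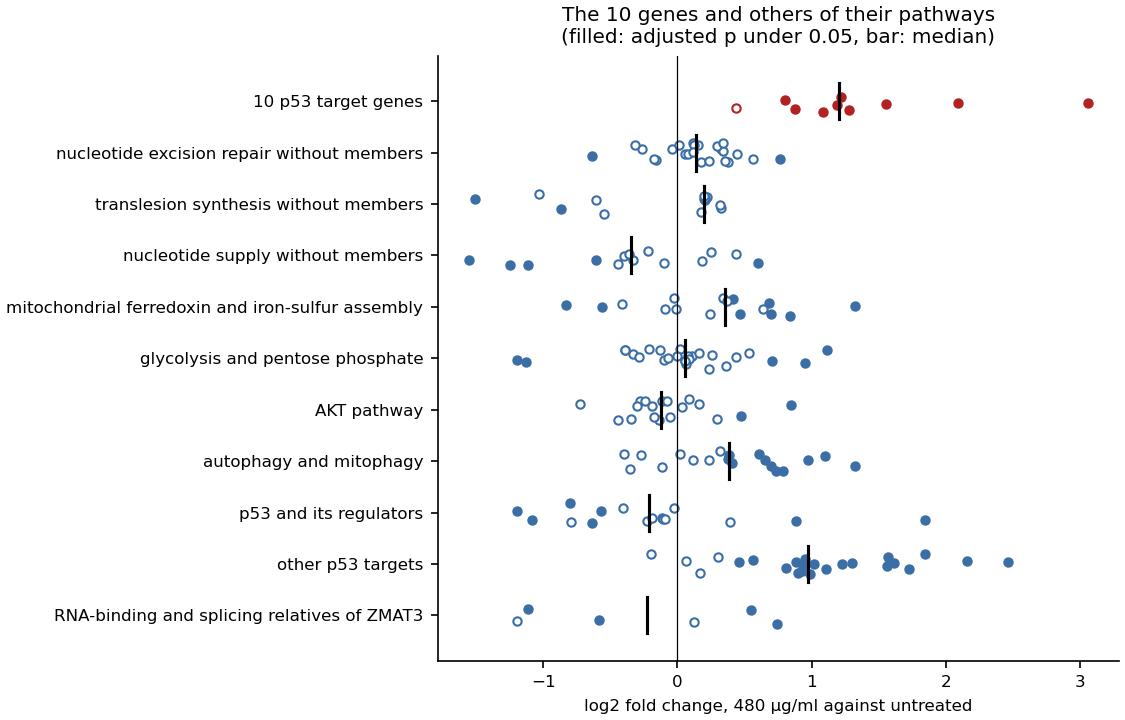
Log2 fold change at 480 µg/ml against untreated cells (x axis) of the 10 genes and of each list of genes from the same pathways (rows); each point is a gene, filled where adjusted p was under 0.05, and bars are medians. MDM2 and PPM1D are on both p53 lists, and the median of the 10 genes is 1.20, against 0.97 for other p53 targets and 0.14 for excision repair.

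The 6 genes outside the 10 whose profile over the 8 libraries lay nearest to the mean profile of the 10 were BBS9, CDC42BPG, CHST15, ASTN2, PDZRN3 and KCTD11. The measure was the root mean square difference of log2 CPM centred on untreated cells, over the 9885 genes whose average log2 CPM was 3 or more. It was 0.10 for BBS9, which acts in cilia, 0.11 for CDC42BPG, a kinase, and 0.16 for KCTD11, a ligase adaptor, and its median over these genes was 0.98. Among the 10 themselves it ran from 0.12 for POLH to 1.14 for FDXR, so by this measure FDXR lay further from the mean than the typical gene outside them. The measure counts the size of a change as well as its direction. At 480 µg/ml FDXR had centred values of 2.72 and 3.32, where the mean profile had 1.36 and 1.31.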

How the data were processed

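RNA of 8 libraries was sequenced. The authors deposited gene counts, TPM and FPKM in tables of the whole series; the submitters' processing notes name Trimmomatic, HISAT2, Bowtie2, StringTie and GRCh38, with no roles. Versions, annotation and the strand counted are not given in the sources used here. The deposited counts were tested as deposited, after 2 duplicate symbol rows were dropped, and the deposited TPM compared levels between genes. The deposited FPKM, with the counts, gave each gene's implied length. The 10 genes and all lists were chosen with earlier results of these data known. From each list, up to 4 genes by smallest p at 480 µg/ml and the gene with the smallest p in the other direction were named, with direct partners whatever their values. A few genes that this rule names are not reported here.

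One edgeR 4.0.16 quasi-likelihood model (R 4.3.3) held all 4 groups without covariates, with TMM scaling, filterByExpr, and Benjamini-Hochberg adjustment over 18303 genes at 0.05. DESeq2 1.42.0, limma 3.58.1 on log2(TPM + 1), other filters and scalings, the replicate number as a block, a fit of the 2 groups compared and each library left out were alternatives. Where a library is left out, the lone library of its group is assumed to vary like the other groups.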

Additional observations from a re-analysis of the deposited data

How the results depend on the processing

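Against untreated cells, no alternative turned the direction of any of the 10 genes: all 180 values at 24, 180 at 240 and 170 at 480 µg/ml lay above 0. At 24 µg/ml, where edgeR called 0 of 10, DESeq2 called 3 (0.178% of all genes higher), the fit with no filter on low counts 4 (0.195%), the fit of the 2 groups 2 (0.0687%) and the fit without 480 µg/ml libraries 6 (0.123%). With 1 library left out the count ran from 0 to 6 at 24 µg/ml, while 0% to 0.116% of all genes were called higher. It ran from 3 to 10 at 240 µg/ml (8 with all; 0.351% to 12.9% of all genes) and 7 to 10 at 480 µg/ml (9 with all; 4.94% to 19.5%). It ran from 0 to 8 at 240 against 24 µg/ml (7 with all; 0% to 11.7%), and 4 to 9 at 480 against 24 µg/ml (8 with all; 4.2% to 18.5%). At 480 against 240 µg/ml it ran from 0 to 3 in either direction (0 with all; 0% to 7.76%). At 240 against 24 µg/ml limma called 3 (1.51% of all genes higher) and the replicate block 4 (1.52%); at 480 against 24 µg/ml the fit of the 2 groups called 5 (6%). The labels give no pairing, and deviations of same-numbered libraries correlated at -0.0797 to 0.0449. These correlations cannot show whether same-numbered libraries shared a culture or a batch. With the replicate block 0, 7 and 9 of 10 were called at 24, 240 and 480 µg/ml, where 0%, 3.43% and 11.6% of all genes were called higher.

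With the length trend removed, values of the other sign were ZMAT3 at 240 against 24 µg/ml (0.15) and at 480 against 24 µg/ml (0.041), and PHLDA2 at 480 µg/ml (-0.13). Others changed sign with 1 library left out, and are given as the lowest and highest value over the libraries. At 480 against 240 µg/ml these were DDB2 (-0.29 to 0.0011), POLH (-0.016 to 0.22), RRM2B (-0.29 to 0.41), SPATA18 (-0.14 to 0.23), TP53INP1 (-0.019 to 0.35), ZMAT3 (-0.46 to 0.17) and PHLDA3 (-0.21 to 0.60). At 480 against 24 µg/ml they were RRM2B (-0.11 to 0.59) and ZMAT3 (-0.51 to 0.11), and at 240 against 24 µg/ml ZMAT3 (-0.14 to 0.044). At 480 µg/ml against untreated cells they were POLI (-0.11 to 0.45), POLK (-0.24 to 0.73) and PHLDA2 (-0.38 to 0.58). The cause was not tested. Each group had 2 libraries, and whether the spread between libraries or depth limited these comparisons was not tested.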
